A study of Mus musculus with 8 samples.

Results

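The mitochondrial ribosomal protein genes were taken from the deposited mRNA expression table as every gene whose symbol begins with Mrpl or Mrps followed by a number. They came to 77 of the 22481 genes in the table, 47 named Mrpl for the large subunit and 30 named Mrps for the small subunit. Levels are in FPKM, which counts the fragments of a gene for each kilobase of its transcript, relative to the size of the library. The test took in each gene with 0.5 FPKM or more in 4 or more of the 8 samples. All 77 members entered the test, which held 10943 of all 22481 genes. The member nearest to the threshold was Mrps36-ps1, at or above it in 7 of 8 samples, and no member fell outside it.

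The series compared liver RNA of 4 db/db samples with that of 4 lean samples, all from male mice housed specific pathogen free with free access to food. The db/db mouse is homozygous for a mutation of the leptin receptor gene, overeats and becomes obese and diabetic. Its strain label is only db/db, with the background strain and the age not given in the sources used here, and the lean samples are labelled C57BL/6, so a difference of background strain and the mutation cannot be told apart. Total RNA was depleted of ribosomal RNA and made into stranded libraries, and the animal behind each sample is not named, so p-values speak only of the spread among these 8 libraries, part of which may be technical.

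Mitochondria translate the few proteins encoded in their own genome, all of them subunits of the respiratory chain and ATP synthase, on a ribosome of their own. The ribosomal RNAs of that ribosome come from the mitochondrial genome, while its proteins are encoded in the nucleus, made in the cytosol and imported. The small subunit reads the messenger RNA and the large subunit joins the amino acids, and many mitochondrial ribosomal proteins have bacterial counterparts while others have none. In liver, this ribosome supplies the respiratory chain of hepatocytes, which are rich in mitochondria.

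Promoter sequences are shown for 6 members, chosen because the results below turn on them and because the 120 bases before their annotated start overlap no annotated exon. They come from the RefSeq windows of GRCm38.p6, the patch release of the mm10 build, and are written 5′ to 3′ on the strand of the gene, which is the forward strand for all 6. Capitals mark letters that match the NRF1 motif (GCGCNTGCGC) or the ETS motif (CCGGAAG) on either strand, both known in promoters of nuclear genes for mitochondrial proteins. Mrpl16 had the largest rise of the members, Mrpl45 was another called rise, Mrpl24 and Mrps6 were called falls, and Mrpl12 and Mrpl52 were abundant members that were not called. The regions are chr19:11770271-11770390 for Mrpl16, chr11:97315596-97315715 for Mrpl45, chr3:87919386-87919505 for Mrpl24, chr16:92058150-92058269 for Mrps6, chr11:120484493-120484612 for Mrpl12 and chr14:54426789-54426908 for Mrpl52.
Mrpl16: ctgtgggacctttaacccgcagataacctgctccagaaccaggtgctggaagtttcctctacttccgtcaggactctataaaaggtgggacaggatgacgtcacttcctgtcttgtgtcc
Mrpl45: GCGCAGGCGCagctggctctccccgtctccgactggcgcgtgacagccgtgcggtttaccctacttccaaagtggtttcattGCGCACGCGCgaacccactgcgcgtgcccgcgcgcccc
Mrpl24: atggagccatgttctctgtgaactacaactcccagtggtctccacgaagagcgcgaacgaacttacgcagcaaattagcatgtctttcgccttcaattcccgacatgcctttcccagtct
Mrps6: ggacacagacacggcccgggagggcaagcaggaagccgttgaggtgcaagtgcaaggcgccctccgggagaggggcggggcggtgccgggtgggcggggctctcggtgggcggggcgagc
Mrpl12: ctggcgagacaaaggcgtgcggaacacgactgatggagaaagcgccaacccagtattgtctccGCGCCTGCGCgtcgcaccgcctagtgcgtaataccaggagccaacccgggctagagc
Mrpl52: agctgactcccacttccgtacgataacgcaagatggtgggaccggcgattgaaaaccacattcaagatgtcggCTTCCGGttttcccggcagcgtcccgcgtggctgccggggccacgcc

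The 3 motifs searched were NRF1, ETS and YY1 (AAGATGGCG), on both strands of each 300-base window from 250 bases before to 50 bases after the RefSeq start. RefSeq windows were found for 67 of the 77 members. Of these, 58.2% held at least 1 of the 3 motifs, beside 32.6% of the 8230 tested genes with a window and 15.1% of all 27025 genes with one. The ETS letters stood in 35.8% of the members and 20.9% of tested genes, the NRF1 letters in 17.9% and 12.1%, and the YY1 letters in 11.9% and 3.85%. Among the members, 8 of the 13 called ones with a window (61.5%) held a motif, as did 31 of the 54 not called (57.4%). By subunit the share was 61.0% of 41 Mrpl genes and 53.8% of 26 Mrps genes. For single motifs the shares were further apart on small counts. The NRF1 letters stood in 1 of 13 called and 11 of 54 uncalled members (7.69% and 20.4%), and in 22.0% of Mrpl and 11.5% of Mrps genes. The ETS letters stood in 46.2% of called and 33.3% of uncalled members, and in 31.7% of Mrpl and 42.3% of Mrps genes. In the printed stretches, Mrpl45 shows a pair of NRF1 matches, Mrpl12 has 1 NRF1 match and Mrpl52 has 1 ETS match, while Mrpl16, Mrpl24 and Mrps6 had no match anywhere in their windows. A match is a description of letters and not a binding site.

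Single libraries stood apart in many members. Among the 4 db/db samples, db/db 1 held the lowest value in 39 of 77 members (50.6%) and the lowest in 29.9% of all genes tested. It held the highest in 11.7% of members and in 33.3% of all genes. The highest value was in db/db 4 in 31 members (40.3%) and in 23.6% of all genes. Among the lean samples, lean 3 held the highest value in 40 members (51.9%) and in 29.7% of all genes, and lean 2 the lowest in 34 members (44.2%) and in 24% of all genes. Below, each call of a member or list gene that depends on a single library is given with the libraries it was lost without, or counted among such calls.

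Most mitochondrial ribosomal protein genes differed little between db/db and lean liver. At an adjusted p below 0.05, 3 of the 77 rose in db/db liver (Mrpl16, Mrpl27 and Mrpl45) and 11 fell (Mrpl47, Mrpl55, Mrpl18, Mrpl24, Mrpl53, Mrpl51, Mrpl33, Mrps18b, Mrps6, Mrps24 and Mrps34). That is 18.2% of the members, against 26.4% of all 10943 genes tested, a share below that background. The share that rose was 3.90% of members and 15.5% of all genes, and the share that fell was 14.3% of members and 10.9% of all genes. The median log2 fold change (db/db minus lean, on log2(FPKM + 1), here and below) was -0.09 over the members and 0.04 over all genes, with 50 members below 0 and 27 above it. Fold changes ran between -0.97 and 0.59. The FPKM values of the 2 groups did not overlap in 5 members that were higher and 14 that were lower in db/db liver, 24.7% in all, beside 28.4% of all genes (16.9% higher and 11.6% lower).

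These counts moved with single libraries, with scaling and with shared loci. The falls came to 4 without lean 1, 6 without db/db 2 or lean 3, and 7 without db/db 3, and 1 rise was called when db/db 2, 3 or 4, or lean 1, 2 or 4, was left out. Median-ratio rescaling of FPKM gave 1 rise and 12 falls, with median log2 fold changes of -0.15 over the members and -0.0043 over all genes. Leaving out the genes that share a locus left 2 rises and 2 falls, with fewer genes tested, and with no filter on low values 7 falls were called. The members that were called under every alternative run for them were Mrpl16, Mrpl55, Mrpl47, Mrpl18 and Mrps18b.

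**Figure D1:**
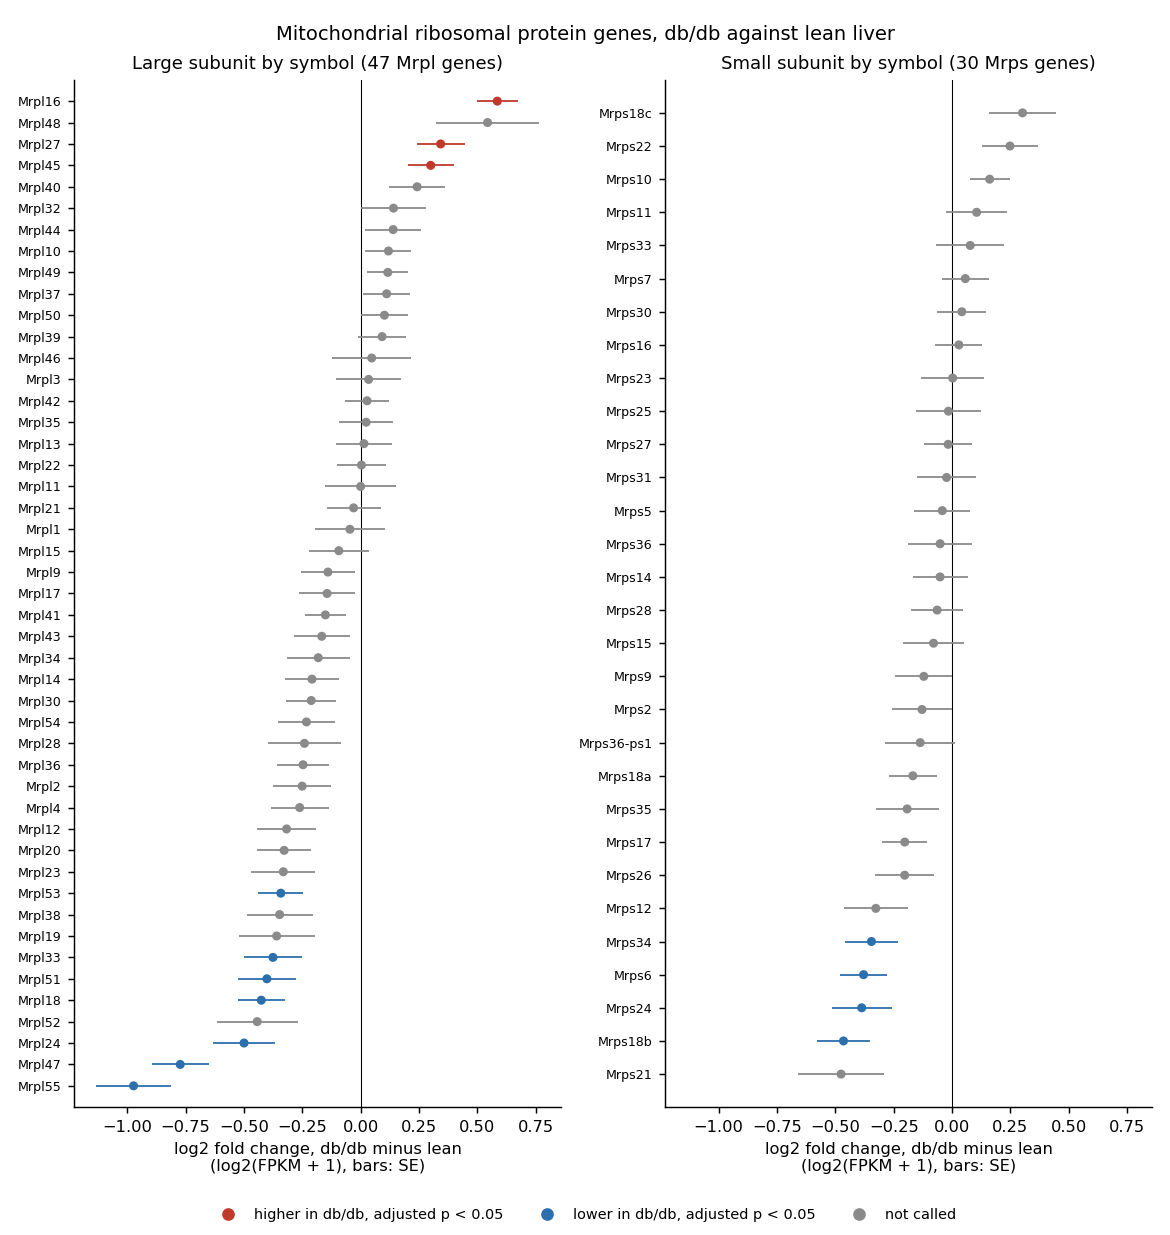
Log2 fold change (db/db minus lean, log2(FPKM + 1), horizontal axis) of each of the 47 Mrpl genes on the left and 30 Mrps genes on the right, with the standard error as a bar. Red points are the 3 called rises, all Mrpl, and blue points the 11 called falls, and values run between -0.97 for Mrpl55 and 0.59 for Mrpl16.

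The large subunit had 3 rises and 7 falls among 47 Mrpl genes (21.3%), and the small subunit 0 rises and 4 falls among 30 Mrps genes (13.3%), both below the 26.4% of all genes tested. With each sample left out in turn, the Mrpl counts were 1 to 3 rises and 3 to 6 falls (3 without lean 1 and 4 without lean 3), and the Mrps counts 0 rises and 1 to 4 falls (1 without db/db 2 or lean 1, and 2 without db/db 1, db/db 3, lean 3 or lean 4). At an unadjusted p below 0.05, limma gave 4 rises and 14 falls in Mrpl and 0 rises and 6 falls in Mrps, which is 38.3% of Mrpl and 20.0% of Mrps genes, beside 38.5% of all genes (22.3% higher and 16.2% lower). Median log2 fold changes were -0.14 for Mrpl and -0.06 for Mrps genes. The Mrpl median lay 0.09 below the Mrps median, and by normalized fragments in place of FPKM this gap was 0.02. By structure, Mrps18a and Mrps30 sit in the large subunit, and Mrps36 and Mrps36-ps1 were assigned to neither. Grouping this way gave 49 large-subunit and 26 small-subunit genes and left the numbers called and both medians as they were. No test sets the subunits apart, since their genes are not replicates of a condition.

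Summed over each subunit, the large subunit reached 1727, 1914, 1950 and 2043 FPKM in db/db 1 to 4, against 2209, 1990, 2384 and 2065 FPKM in lean 1 to 4. The mean was 1908 ± 133 FPKM in db/db and 2162 ± 174 FPKM in lean liver (SD, n = 4 each), and db/db 4 lay above lean 2, so the groups overlapped. The small subunit summed to 921, 1053, 1050 and 1068 FPKM in db/db liver, against 1168, 1057, 1261 and 1076 FPKM in lean liver. Here too the groups overlapped, again at db/db 4 and lean 2, with means of 1023 ± 68.5 FPKM in db/db and 1140 ± 93.8 FPKM in lean liver (SD, n = 4 each). The ratio of small to large subunit was 0.536 ± 0.0116 in db/db and 0.527 ± 0.00428 in lean liver. As a share of all FPKM in a sample, the members made up 0.498 ± 0.0164% in db/db and 0.501 ± 0.0280% in lean liver, a gap smaller than either SD. The totals behind these shares differed, at 555661 to 602391 FPKM in db/db and 641355 to 676884 FPKM in lean samples. Part of that gap lay in mitochondrial genes listed at 0 in db/db samples, which are described below.

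**Figure D2:**
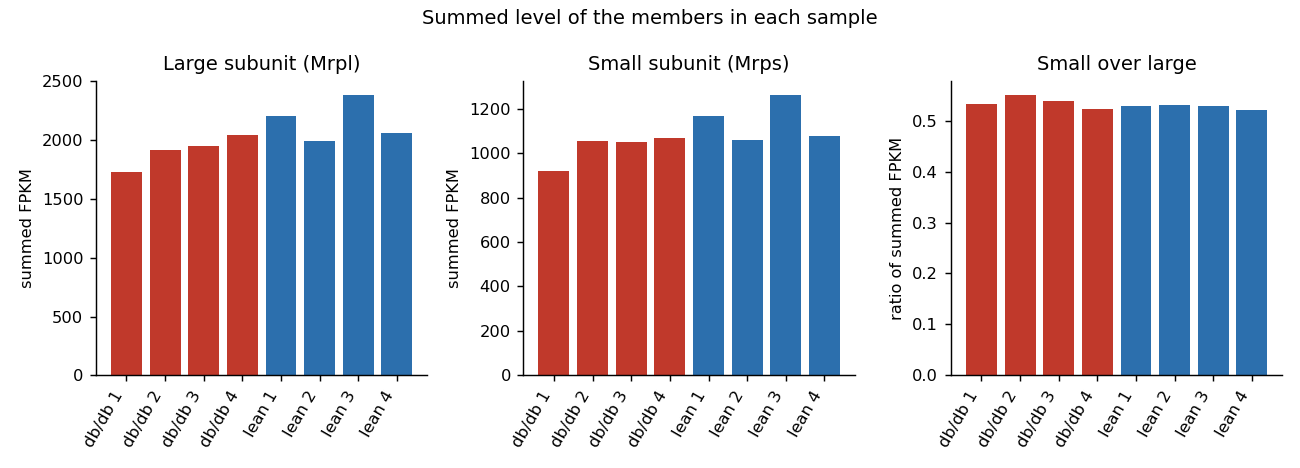
Summed FPKM of the Mrpl genes (left) and Mrps genes (middle) and the ratio of small to large subunit (right) in each sample, db/db in red and lean in blue. Sums run lowest in db/db 1 and highest in lean 3, while the ratio stays between 0.521 and 0.551 in all 8 samples.

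Among the large-subunit rises, Mrpl16 is the counterpart of a bacterial protein that lies near the site of peptide bond formation. Its gene (ENSMUSG00000024683, mm10, chromosome 19, 11770391 to 11774960) is alone at its locus. Mrpl16 had 42.0, 41.0, 42.0 and 41.6 FPKM in db/db 1 to 4, against 29.9, 27.0, 26.8 and 26.2 FPKM in lean 1 to 4. The 4 db/db samples lay close together and far above the highest lean sample. The level was 1.52 times as high in db/db liver, a log2 fold change of 0.59 ± 0.09 (SE; limma adjusted p = 0.000883; exact 2-sided permutation p = 0.0286, the smallest that 4 against 4 samples allow). Over 19 alternatives the adjusted p stayed between 0.000586 and 0.00666.

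Mrpl27, whose bacterial counterpart reaches into the site of peptide bond formation, had 66.6, 78.6, 83.1 and 83.8 FPKM in db/db liver, against 59.5, 62.4, 65.1 and 57.5 FPKM in lean liver. The lowest db/db sample, db/db 1, stood just above the highest lean sample, lean 3. The fold was 1.28 (log2 0.34 ± 0.10, adjusted p = 0.0323). Mrpl45, which in mammals sits by the mouth of the exit tunnel and anchors the ribosome to the inner membrane, had 14.0, 15.3, 14.6 and 13.5 FPKM in db/db liver, against 10.5, 11.2, 12.2 and 12.0 FPKM in lean liver. Its groups were close but did not overlap, with a fold of 1.25 (log2 0.30 ± 0.10, adjusted p = 0.0467). Both calls were fragile: over the alternatives Mrpl27 ranged to an adjusted p of 0.0881 (lost without db/db 2, 3 or 4 and without lean 1, 2 or 4), and Mrpl45 to 0.127 (kept only when lean 3 was the sample left out).

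The 2 largest falls were in the large subunit. Mrpl55 is the counterpart of a bacterial large-subunit protein, and its gene (ENSMUSG00000036860, mm10, chromosome 11, 59202486 to 59206134) is alone at its locus. Mrpl55 had 11.3, 13.6, 16.5 and 14.2 FPKM in db/db liver, against 28.4, 36.4, 27.2 and 21.8 FPKM in lean liver. The highest db/db sample stayed below the lowest lean sample, lean 4, and lean 2 stood well above the other lean samples. The fold was 0.488 (log2 -0.97 ± 0.16, adjusted p = 0.00149). Mrpl47, whose bacterial counterpart lies by the exit tunnel, had 8.93, 13.4, 10.9 and 11.0 FPKM in db/db liver, against 18.9, 20.0, 18.8 and 20.1 FPKM in lean liver. The lean samples were tightly grouped, all above the highest db/db sample, db/db 2. The fold was 0.569 (log2 -0.77 ± 0.12, adjusted p = 0.00113). Mrpl47 shares its locus with Actl6a and Ndufb5 and overlaps both on the other strand, and the counting is not stated to use strand, so its reads are uncertain.

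Mrpl18 and Mrpl24, whose bacterial counterparts lie in the central protuberance and by the exit tunnel, fell by less. Mrpl18 had 41.6, 40.0, 34.5 and 44.0 FPKM in db/db liver, against 51.7, 52.3, 56.6 and 55.2 FPKM in lean liver. The groups were well apart (fold 0.742, log2 -0.43 ± 0.10, adjusted p = 0.0108). Mrpl24 had 56.6, 53.6, 65.0 and 64.8 FPKM in db/db liver, against 90.2, 68.7, 103.7 and 81.2 FPKM in lean liver. Lean 2 came closest to the db/db samples, and the fold was 0.698 (log2 -0.50 ± 0.13, adjusted p = 0.0191). The call of Mrpl24 was lost without db/db 2 or lean 1 (adjusted p up to 0.058), and both genes share a locus, Mrpl18 with Acat3 and Tcp1.

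Mrpl53 and Mrpl51 belong to the proteins with no bacterial counterpart. Mrpl53 had 41.9, 38.2, 44.1 and 43.4 FPKM in db/db liver, against 52.7, 48.3, 57.6 and 54.9 FPKM in lean liver. Every lean sample lay above every db/db sample, the fold being 0.784 (log2 -0.34 ± 0.10, adjusted p = 0.0246). Mrpl51 had 53.6, 68.8, 64.0 and 66.1 FPKM in db/db liver, against 87.2, 78.0, 98.5 and 72.1 FPKM in lean liver. Only a small gap lay between db/db 2 and lean 4 (fold 0.752, log2 -0.40 ± 0.12, adjusted p = 0.0351). Mrpl33, with a bacterial counterpart, averaged 52.5 ± 5.46 FPKM in db/db and 68.7 ± 9.34 FPKM in lean liver (SD, n = 4 each) and was also called (log2 -0.38 ± 0.12, adjusted p = 0.0449), although its groups overlapped. Over the alternatives the adjusted p of Mrpl53 reached 0.0776 (lost without db/db 2, lean 1, lean 3 or lean 4), that of Mrpl51 reached 0.0887 (lost without db/db 1, 3 or 4, or lean 1, 2 or 3), and that of Mrpl33 reached 0.123 (lost without db/db 1, 3 or 4, or lean 1, 2 or 3).

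**Figure D3:**
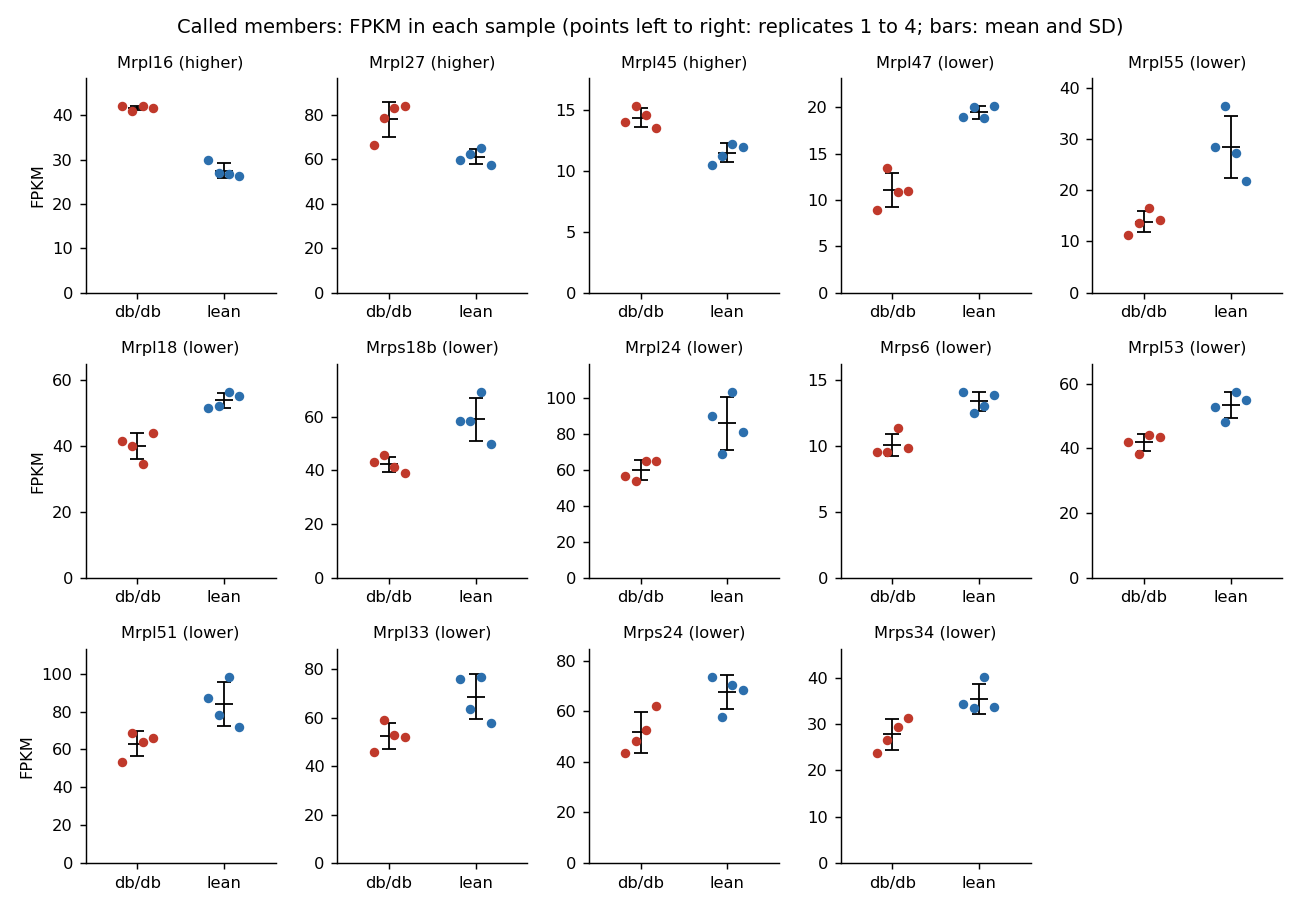
FPKM (vertical axis, from 0) of the 14 called members in each sample, db/db in red on the left and lean in blue on the right of each panel, with the mean and SD. The 3 panels of rises come first, and in 12 of the 14 panels the groups do not overlap, the exceptions being Mrpl33 and Mrps24.

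Among the small-subunit genes, 4 fell. Mrps18b is 1 of 3 mouse paralogs of a bacterial small-subunit protein, with Mrps18a and Mrps18c, and had 43.0, 45.6, 41.3 and 38.9 FPKM in db/db liver, against 58.2, 58.5, 69.3 and 49.8 FPKM in lean liver. The highest db/db sample lay below lean 4, the lowest lean sample (fold 0.716, log2 -0.47 ± 0.11, adjusted p = 0.0128). The other 2 paralogs were not called. Mrps18a stood at 33.3, 32.3, 31.7 and 33.5 FPKM in db/db liver, against 34.1, 34.6, 43.1 and 36.2 FPKM in lean liver, with no overlap (log2 -0.17 ± 0.10, adjusted p = 0.251). Mrps18c had 45.1, 48.1, 65.2 and 65.5 FPKM in db/db liver, against 51.7, 41.1, 41.0 and 45.4 FPKM in lean liver. Here db/db 3 and 4 were high and db/db 1 and 2 lay among the lean samples (log2 0.30 ± 0.15, adjusted p = 0.153).

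Mrps6, the counterpart of a bacterial protein of the small-subunit platform, had 9.55, 9.51, 11.3 and 9.82 FPKM in db/db liver, against 14.1, 12.5, 13.0 and 13.8 FPKM in lean liver. Both groups were narrow and apart (fold 0.752, log2 -0.38 ± 0.10, adjusted p = 0.0197). Mrps24, the counterpart of a bacterial protein by the mRNA entry, had 43.5, 48.4, 52.7 and 62.3 FPKM in db/db liver, against 73.8, 57.9, 70.3 and 68.6 FPKM in lean liver. The groups overlapped at db/db 4 and lean 2 (log2 -0.39 ± 0.13, adjusted p = 0.0463). Mrps34, with no bacterial counterpart and needed in human cells for a stable small subunit, had 23.7, 26.7, 29.5 and 31.3 FPKM in db/db liver, against 34.4, 33.6, 40.3 and 33.8 FPKM in lean liver. Lean 3 stood apart from the other lean samples, and the groups did not overlap (fold 0.783, log2 -0.35 ± 0.11, adjusted p = 0.0469). The adjusted p reached 0.0598 for Mrps6 (lost without db/db 2, db/db 4 or lean 1), 0.121 for Mrps24 (lost without db/db 1, 2 or 3, or lean 1, 3 or 4) and 0.107 for Mrps34 (kept only when db/db 4 was the sample left out). All 4 genes share a locus with another gene, so these calls drop out when such genes are left out of the test.

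Proteins of the stalk, which recruits translation factors, were not called. Mrpl12, the stalk protein itself, had 91.9, 87.6, 98.7 and 107.1 FPKM in db/db liver, against 110.4, 102.7, 147.9 and 123.4 FPKM in lean liver. Lean 3 was highest and db/db 4 passed lean 2 (log2 -0.32 ± 0.13, adjusted p = 0.0909). Mrpl10, at the stalk base, averaged 29.6 ± 1.65 FPKM in db/db and 27.2 ± 2.32 FPKM in lean liver (log2 0.12 ± 0.10, adjusted p = 0.406; n = 4 each). Mrpl11, which also lies at the stalk base, averaged 10.6 ± 1.56 FPKM in db/db and 10.6 ± 1.98 FPKM in lean liver, with a log2 fold change of 0.00 ± 0.15 (adjusted p = 0.999). The abundant stalk protein thus had lower mean FPKM in db/db liver, and the base proteins were level or slightly higher, none of these differences passing the test.

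Of other members tied to catalysis and decoding, the 3 named for their role, Mrpl3, Mrps12 and Mrps5, were not called, unlike Mrpl16 and Mrpl27. Mrpl3, whose bacterial counterpart supports the site of peptide bond formation, had 11.6, 9.03, 8.50 and 10.3 FPKM in db/db liver, against 7.78, 9.06, 10.6 and 11.0 FPKM in lean liver (log2 0.03 ± 0.14, adjusted p = 0.882). Mrps12, the counterpart of the bacterial decoding-site protein, had 31.4, 28.1, 30.9 and 32.2 FPKM in db/db liver, against 38.7, 29.8, 47.7 and 40.5 FPKM in lean liver. It overlapped through lean 2 alone, and without that sample it was called, with a log2 fold change of -0.45, against -0.33 ± 0.14 with all samples (adjusted p = 0.104). Mrps5, whose bacterial counterpart bears on reading accuracy, averaged 54.2 ± 7.72 FPKM in db/db and 55.5 ± 3.68 FPKM in lean liver (log2 -0.04 ± 0.12, adjusted p = 0.827; n = 4 each).

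Mrps27 and Mrpl44, each with an RNA-binding fold of its own kind, were close to level. Mrps27, a pentatricopeptide repeat protein, averaged 15.6 ± 1.20 FPKM in db/db and 15.8 ± 1.24 FPKM in lean liver (log2 -0.02 ± 0.10, adjusted p = 0.923; n = 4 each). Mrpl44, related to ribonuclease III, averaged 13.2 ± 1.24 FPKM in db/db and 11.9 ± 1.48 FPKM in lean liver (log2 0.14 ± 0.12, adjusted p = 0.421; n = 4 each).

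The most abundant members per length were Mrps21 and Mrpl52, and both had the most negative uncalled fold change of their subunit. Mrps21, the counterpart of a bacterial small-subunit protein, had 110.2, 173.0, 168.9 and 173.9 FPKM in db/db liver, against 227.3, 174.2, 278.7 and 191.0 FPKM in lean liver. The groups met at db/db 4 and lean 2 without overlapping (log2 -0.48 ± 0.18, adjusted p = 0.0811). Mrpl52, with no bacterial counterpart, had 81.2, 121.9, 135.3 and 123.1 FPKM in db/db liver, against 160.1, 130.2, 193.6 and 141.2 FPKM in lean liver. Lean 2 lay below db/db 3, so these groups overlapped (log2 -0.44 ± 0.17, adjusted p = 0.0851). In both genes db/db 1 was the lowest and lean 3 the highest sample, as for many members.

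At the other end, Mrpl48, with no bacterial counterpart, had the highest uncalled fold change. Its level was 9.04, 11.1, 9.54 and 19.6 FPKM in db/db liver, against 6.27, 9.15, 7.01 and 8.90 FPKM in lean liver. Db/db 4 alone stood far above the rest, and db/db 1 lay below lean 2 (log2 0.54 ± 0.22, adjusted p = 0.0955). Mrpl48 rested on 30 to 102 fragments a sample, fewer than any other member but Mrps36-ps1. Mrpl19, the lowest Mrpl gene, with a bacterial counterpart, had 8.56, 5.33, 5.58 and 5.71 FPKM in db/db liver, against 7.11, 9.64, 7.12 and 9.35 FPKM in lean liver. Only db/db 1 reached the lean range, and without it Mrpl19 was called (adjusted p = 0.0277), against 0.129 with all samples. With normalized fragments in place of FPKM the log2 fold change of Mrpl19 was 0.02, against -0.36 ± 0.16 with FPKM. Mrps36-ps1, the lowest Mrps gene, is annotated as a processed pseudogene, lay between 0.243 and 0.983 FPKM on 2 to 9 fragments, and was not called (adjusted p = 0.540).

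Of the remaining uncalled members, Mrpl49 and Mrps10 were higher and Mrpl30, Mrpl38 and Mrps17 lower in every db/db sample than in every lean sample. These were small differences, from a log2 fold change of 0.16 in Mrps10 to -0.35 in Mrpl38, with adjusted p between 0.0966 for Mrpl38 and 0.368 for Mrpl49. Mrpl38 passed the test with normalized fragments (adjusted p = 0.0435), as did Mrps23 (0.0463), whose log2 fold change was -0.35 by fragments and 0.00 by FPKM. The fragments per FPKM, which reflect the transcript length used by the authors, stayed within 5% of their mean in all samples for 51 of the 77 members, Mrps23, Mrpl19, Mrpl48 and Mrpl47 being among the rest. Mrps11 and Mrpl46, a pair of genes transcribed away from each other from 1 locus on chromosome 7, were both near level, at log2 0.11 ± 0.13 and 0.05 ± 0.17 (adjusted p = 0.587 for Mrps11 and 0.865 for Mrpl46).

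Grouped by level, the 21 members with a mean of at least 50 FPKM had a median log2 fold change of -0.32, with 17 of 21 below 0, 1 called rise and 5 called falls. The 37 members between 20 and 50 FPKM had a median of -0.05 with 1 rise and 4 falls, and the 19 below 20 FPKM a median of -0.02 with 1 rise and 2 falls. Grouped by origin, the 48 with a bacterial counterpart had a median of -0.14 with 2 rises and 8 falls, and the 27 with none a median of 0.00 with 1 rise and 3 falls, the other 2 members being left unassigned. Grouped by position, 10 of 31 members that share a locus with another gene were called (32.3%), 9 of them falls, and 4 of the 46 alone at their locus (8.70%), 2 of them falls. The shares called were 28.6%, 13.5% and 15.8% from the highest to the lowest level, and 20.8% and 14.8% with and without a bacterial counterpart. Of all genes tested, 15.5% rose and 10.9% fell, 26.4% together. The share called among all tested genes that share a locus was not computed. Whether the gap by position is particular to the members is therefore not known. These groupings overlap and were not tested against each other.

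Beside the members stood the proteins of the cytosolic ribosome and the nuclear-encoded subunits of the respiratory chain. Of 82 cytosolic ribosomal protein genes tested, 0 rose and 77 fell (93.9%), with a median log2 fold change of -0.72, and at an unadjusted limma p below 0.05 the counts were 0 and 78. Of 77 respiratory chain genes, 7 rose and 7 fell (18.2%), with a median of -0.14. The mitochondrial ribosomal proteins (3 rises, 11 falls, 18.2%, median -0.09) had a share called and a median near those of the respiratory chain. Their calls were mostly falls, while those of the respiratory chain were as many rises as falls. The members' median was nearer to 0 than that of the cytosolic ribosomal proteins. The difference between these groups was not tested, since genes are not replicates.

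**Figure D4:**
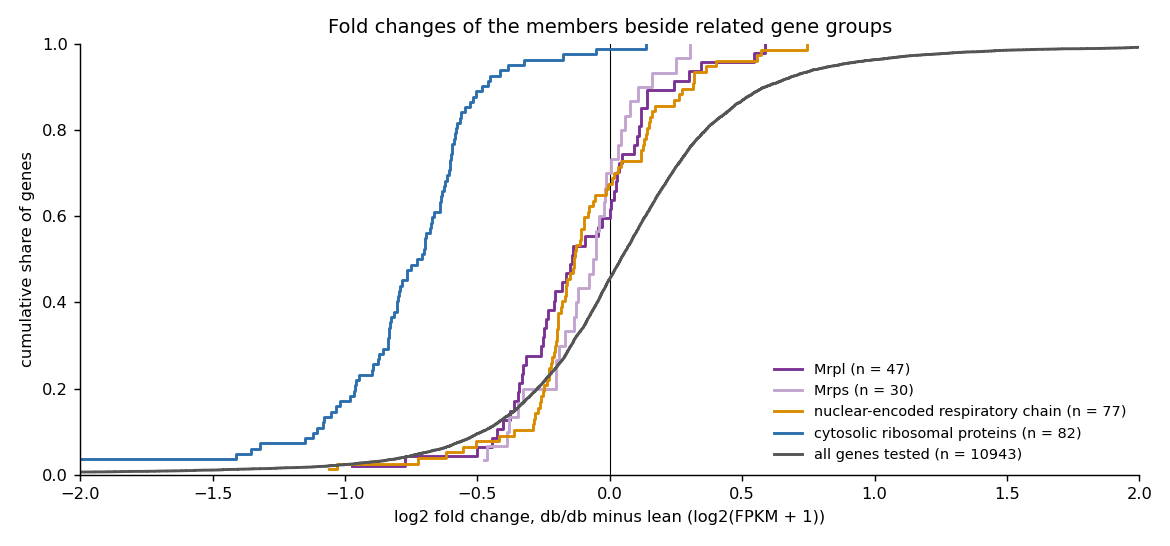
Cumulative share of genes (vertical axis) by log2 fold change, db/db minus lean, on log2(FPKM + 1) (horizontal axis, cropped at both ends). The curves of the 47 Mrpl and 30 Mrps genes run close to that of 77 nuclear-encoded respiratory chain genes, and the 82 cytosolic ribosomal protein genes lie to the left, with a median of -0.72.

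Other genes of mitochondrial translation were read from 8 lists, which held 117 tested genes, 14 of them called as rises and 16 as falls (25.6%), a share near the 26.4% of all genes. With each sample left out in turn, the lists had 9 to 13 rises and 7 to 14 falls. The falls were at 7 without lean 3, 8 without db/db 2, 9 without db/db 4 and 10 without lean 1 or 2, and the rises at 9 without db/db 2 or lean 3. Of the 30 calls, 13 were kept whichever sample was left out, and 24 were also made with normalized fragments. Of 7 further mitoribosome proteins with other names, 0 rose and 1 fell (1 and 4 at an unadjusted limma p below 0.05). The fall was in Aurkaip1, a small-subunit protein, which averaged 71.6 ± 7.04 FPKM in db/db and 94.6 ± 9.75 FPKM in lean liver (log2 -0.40 ± 0.11, adjusted p = 0.0245; n = 4 each), a call lost without db/db 1, db/db 2, lean 1 or lean 3. Of 29 assembly and rRNA modification factors, 2 rose and 2 fell. Mettl15, a methyltransferase of the small-subunit rRNA, averaged 3.28 ± 0.314 FPKM in db/db and 0.987 ± 0.308 FPKM in lean liver (log2 1.12 ± 0.14, adjusted p = 0.000253), and Gtpbp6, a GTPase that acts on the large subunit, averaged 5.41 ± 0.441 FPKM in db/db and 9.59 ± 1.05 FPKM in lean liver (log2 -0.72 ± 0.12, adjusted p = 0.00127). C1qbp, the most abundant gene of that list, was not called (adjusted p = 0.284).

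The list of translation factors had the most rises of the 8 lists. It also held genes of related steps, such as Oxa1l, Pdf and Slirp. Of 16 tested, 6 rose (Mtif3, Gfm1, Gfm2, Guf1, Taco1 and Pdf) and 1 fell (Oxa1l), which is 43.8%, beside 26.4% of all genes, with a median log2 fold change of 0.30. With each sample left out in turn, 2 to 6 genes of this list were called higher, Mtif3 and Gfm2 each time. There were 2 without lean 3, 3 without db/db 2 or 4, and 4 without db/db 1 or lean 1, 2 or 4. The 6 without db/db 3 included Mtrf1 and not Pdf. Mtif3, an initiation factor, averaged 29.7 ± 3.29 FPKM in db/db and 20.5 ± 1.59 FPKM in lean liver (log2 0.51 ± 0.11, adjusted p = 0.00646), and Gfm2, a factor that recycles the ribosome, averaged 17.1 ± 2.34 FPKM in db/db and 10.7 ± 1.18 FPKM in lean liver (log2 0.62 ± 0.12, adjusted p = 0.00449). Oxa1l, which inserts new proteins into the inner membrane, averaged 13.1 ± 1.13 FPKM in db/db and 17.1 ± 1.41 FPKM in lean liver (log2 -0.36 ± 0.11, adjusted p = 0.0312), a call lost without db/db 2, db/db 4 or lean 1, 2 or 3. Slirp, the most abundant gene of the list and an RNA-binding protein, was not called (adjusted p = 0.687).

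In the list of 19 mitochondrial aminoacyl-tRNA synthetases and related genes (Qrsl1 and Gatc), Vars2 was the only fall. Vars2, for valine, averaged 3.67 ± 0.646 FPKM in db/db and 6.11 ± 2.02 FPKM in lean liver (adjusted p = 0.0449). That call was kept only when db/db 3 or lean 4 was the sample left out, and it was lost with normalized fragments (adjusted p = 0.0718). Fars2, the most abundant of the list, was not called (adjusted p = 0.719). Of 11 genes of mitochondrial transcription, nucleoid and RNA processing, 2 rose and 1 fell. Hsd17b10, a subunit of the mitochondrial ribonuclease P, which cuts tRNAs at one end, averaged 381.4 ± 31.4 FPKM in db/db and 209.9 ± 16.2 FPKM in lean liver (adjusted p = 0.000216). Elac2, which cuts the other end, was the other rise (adjusted p = 0.0387), and Polrmt, the mitochondrial RNA polymerase, averaged 10.9 ± 1.08 FPKM in db/db and 17.6 ± 6.01 FPKM in lean liver (adjusted p = 0.0395). With normalized fragments the log2 fold change of Polrmt was -0.08 (adjusted p = 0.674), against -0.60 with FPKM. The calls of Polrmt and Elac2 were each lost in 6 of the 8 fits that left a sample out.

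Among 11 nuclear regulators of mitochondrial genes, 1 rose and 1 fell. Ppargc1a, a coactivator of mitochondrial and gluconeogenic genes, averaged 1.99 ± 0.486 FPKM in db/db and 0.459 ± 0.312 FPKM in lean liver (log2 1.05 ± 0.19, adjusted p = 0.00232), and Hcfc1, a transcriptional coregulator, averaged 3.99 ± 0.218 FPKM in db/db and 5.39 ± 0.575 FPKM in lean liver (adjusted p = 0.0417). The call of Hcfc1 was kept only when lean 2 was the sample left out. With normalized fragments neither was called, Hcfc1 being at a log2 fold change of -0.18 (adjusted p = 0.321) and Ppargc1a at 3.17 (adjusted p = 0.0562). Esrra, the most abundant of the list and a nuclear receptor, was not called (log2 -0.34 ± 0.12, adjusted p = 0.0596). Nrf1 (adjusted p = 0.117), Gabpa of the ETS family (0.551) and Yy1 (0.629), whose motifs were searched in the promoters, were not called with FPKM. With normalized fragments Nrf1 was called lower, at a log2 fold change of -0.69 (adjusted p = 0.0126), against -0.36 with FPKM, and without db/db 1 it was called with FPKM too (adjusted p = 0.0227). Of 12 markers of mitochondrial content, Lonp1, a matrix protease, rose (adjusted p = 0.0374, kept in 2 of the 8 fits that left a sample out). Tomm22, an import receptor, fell (adjusted p = 0.00424). Clpp, a matrix protease, also fell (adjusted p = 0.0215), a call lost without db/db 4 or lean 1. Hspd1, the matrix chaperonin and the most abundant, averaged 183.0 ± 39.4 FPKM in db/db and 178.9 ± 19.0 FPKM in lean liver (adjusted p = 0.951).

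**Figure D5:**
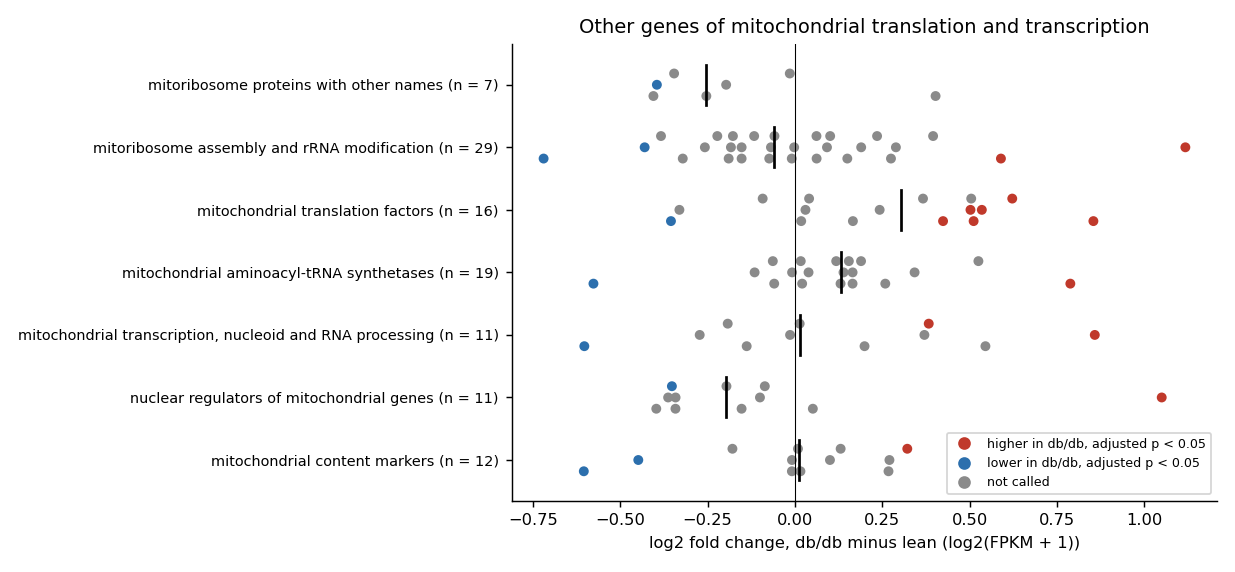
Log2 fold change, db/db minus lean, on log2(FPKM + 1) (horizontal axis) of the tested genes of 7 lists, 1 point a gene, with the list's median as a black bar. Called rises are red and called falls blue. The list of translation factors and genes of related steps, with 6 rises and a median of 0.30, lies furthest to the right.

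The products of this ribosome are encoded in the mitochondrial genome, and their values could be used only in part. In db/db 1 to 3, mt-Nd3, mt-Nd4, mt-Nd4l, mt-Co3 and mt-Atp6 were listed at 0, and mt-Co1 was given as 0 throughout db/db liver, against 10029 to 12810 FPKM in lean liver. An exact 0 in such a table can be a failed estimate, so no fold is given, and 6 of the 7 falls called among the 12 tested genes of this list are such genes. Of those with values in all samples, mt-Nd5, a subunit of complex I, had 2427, 1649, 1591 and 1366 FPKM in db/db liver, against 552.3, 724.4, 508.1 and 703.7 FPKM in lean liver, and was called (adjusted p = 0.000295). The other called gene with values in all samples, mt-Cytb of complex III, was lower, at 10470, 9380, 10918 and 8567 FPKM in db/db liver, against 13697, 15168, 12191 and 12169 FPKM in lean liver (log2 -0.44, adjusted p = 0.0475). Its groups did not overlap, but the call was kept only when db/db 1 was the sample left out, and normalized fragments gave an adjusted p of 0.0709. The mt-Nd2 gene, the most abundant without a 0, was not called (adjusted p = 0.607). These genes lie on the same genome as those listed at 0, and whether that affected their values was not tested.

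Markers of liver cell types were summed per sample to show what else differed. Hepatocyte markers summed to between 13735 and 16128 FPKM in db/db and between 32478 and 39399 FPKM in lean liver, with 4 falls among 9 tested, and with Alb listed at 0 in all samples. Much of that gap was Apoa1, an apolipoprotein, at 587.8 to 1221 FPKM in db/db and 13473 to 18621 FPKM in lean liver, and without it the sums were 13147 to 14907 FPKM in db/db and 18882 to 20778 FPKM in lean liver. Ttr, Trf and Serpina1a were the other falls, and Apob, Hnf4a, Cyp3a11, Tat and Cps1 were not called. Kupffer cell markers summed to between 127.9 and 181.7 FPKM in db/db and between 184.7 and 282.6 FPKM in lean liver (3 falls among 8), and sinusoidal endothelial markers to between 62.99 and 66.86 FPKM in db/db and between 79.55 and 98.3 FPKM in lean liver (2 falls among 6). The 2 endothelial falls were Clec4g and Fcgr2b, the most abundant of that list. Kdr was lower without a call, and the other 3 had folds above 1, at 1.05 for Stab2, 1.09 for Pecam1 and 1.83 for Lyve1. Lyve1 was higher in every db/db sample than in every lean sample but was not called (limma adjusted p = 0.0548). Pancreatic acinar markers summed to between 1.82 and 2.83 FPKM in db/db and between 14.6 and 20.4 FPKM in lean liver, but this sum was nearly all Cela1, an elastase, at 1.81 to 2.62 FPKM in db/db and 14.6 to 20.4 FPKM in lean liver. Of the other acinar markers, Cela3b, Prss2 and Pnlip were at 0 throughout and Ctrb1 at 0 in 7 of 8 samples. The summed levels of stellate cell, cholangiocyte, lymphocyte, neutrophil, adipocyte and erythroid markers overlapped between the groups. Within these lists, Retn and Des were called. Retn, of the adipocyte list, had 1.58 to 8.36 FPKM in db/db and 0 to 0.297 FPKM in lean liver (limma adjusted p = 0.000633). The other adipocyte markers were not called or too low to be tested. Des, of the stellate cell list, averaged 0.892 FPKM in db/db and 1.69 FPKM in lean liver (limma adjusted p = 0.0325). The part of these cell types in the members' values was not tested, and in such bulk samples fewer cells of a type and less RNA per cell cannot be told apart. The depth was 12176526 to 16172365 estimated fragments a sample, and the median fragments per member and sample were 473.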

How the data were processed

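Liver RNA was measured by RNA sequencing in 4 db/db and 4 lean samples, grouped and numbered by their titles. The submitters' processing notes name HISAT2 2.0.4, cutadapt 1.9.3, Cuffdiff, Cufflinks and the build mm10, without their roles or order. The deposited table gave FPKM values per gene and sample, per the file headers, made by the authors with a transcript length not given in the sources used here. A second set of deposited columns, headed counts, held a normalized signal: each library's estimated fragments over its size factor. Leaving out the lowest and the highest values, 91.8 to 92.3% lay within 0.05 steps of a whole multiple of the library's step. The step was itself chosen to make such a share as large as possible, so the share is not independent of it. These columns served for depth and as an alternative measure, called normalized fragments. Of 22564 rows with values, those of the same symbol (79 symbols) were summed, which gave 22481 genes.

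Genes with at least 0.5 FPKM in 4 samples or more were tested as log2(FPKM + 1), which understates the change of low genes, by limma 3.58.1 (R 4.3.3; lmFit and trended eBayes). Tests were 2-sided, adjusted by Benjamini-Hochberg over all 10943 genes, with a threshold of 0.05. Folds are ratios of mean FPKM. The step was tested on simulated data for the same comparison and 10943 genes. Changes of 0.5, 1 and 2 on the log2 scale were put into 67, 67 and 66 genes drawn from all genes tested. Of these, 20.9%, 79.1% and 97.0% were recovered, with 11 false calls, so small changes can be missed. The real fit called 26.4% of genes, so its Benjamini-Hochberg cutoff was not that of the simulation. The shares recovered therefore do not say how often changes of the members were missed. Single members were also compared by an exact permutation test over samples. The alternatives were other pseudocounts, filters, scalings and weights, normalized fragments, the replicate number as a block, no mean trend, leaving out genes that share a locus, and leaving out each sample.

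Gene coordinates are from GENCODE M21 (GRCm38, which is mm10), 1-based. 31 of the 77 members share a locus with another row of the table, and the counting is not stated to use strand, so their reads are uncertain. The members and the lists were chosen with earlier results of these data known. Named were every called member, the members with the highest and lowest mean and the largest uncalled change of each subunit, those whose highest FPKM was at least 3 times the lowest (Mrpl48, Mrpl55 and Mrps36-ps1), 8 members of known role, and, in each list, the 2 called genes with the smallest adjusted p and the gene with the highest mean. A gene that this rule names is not reported here. The paralogs Mrps18a and Mrps18c, the pair Mrps11 and Mrpl46, Mrps23, the members that did not overlap without a call, the other called genes of the lists, the factors of the motifs and the cell type markers were named after their values were seen. So were Mtrf1, Qrsl1 and Gatc.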

Additional observations from a re-analysis of the deposited data

Results flagged for a closer look

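Each of 62 groups of 4 samples (28 members and the summed levels, in each genotype) was screened for a sample whose gap to its neighbour, over the range of the group, exceeded Dixon's 95% critical value. This picked 5, and chance alone picks about 1 in 20. In db/db 1 the summed small-subunit level was 921 FPKM, against 1050 to 1068 FPKM in the other db/db samples. Mrps21 in the same sample stood at 110.2 FPKM, against 168.9 to 173.9 FPKM in the other db/db samples. Mrpl19 went the other way there, at 8.558 FPKM against 5.329 to 5.706 FPKM in the other db/db samples. In lean 3, Mrps34 stood at 40.26 FPKM, against 33.63 to 34.37 FPKM in the other lean samples. Mrpl10 in lean 3 stood at 30.69 FPKM, against 25.87 to 26.25 FPKM in the other lean samples.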

How the results depend on the processing

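The medians of the members, of Mrpl and of Mrps kept their sign under every alternative run, and no called member changed sign. Without a filter the members' falls came to 7, those of Mrps to 2 and those of the other lists to 10, and with at least 1 FPKM in all 8 samples the lists had 9. Median-ratio rescaling left 1 rise among the members, which was in Mrpl. Without a mean trend, 2 Mrps falls were called. Of the members named above, quantile normalization added calls of Mrpl12 and Mrpl52 and lost that of Mrpl45, and library weights added Mrpl19 and lost Mrpl33 and Mrps34. Leaving out genes that share a locus gave 2 falls among the members, 2 in Mrpl and 0 in Mrps, and 5 rises and 5 falls in the lists, with fewer genes tested by construction. The Mrpl minus Mrps median was -0.0211 with normalized fragments and -0.0462 with library weights. With the replicate number as a block, 6 falls were called among the members and 1 in Mrps, and Mrpl48 was called as a rise. Same-numbered samples were not paired by this check: their deviations correlated at -0.221, 0.0293, 0.11 and -0.00925.

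Leaving out each sample in turn gave 1 to 3 rises and 4 to 10 falls among the members, 1 to 3 and 3 to 6 in Mrpl, 1 to 4 falls in Mrps, and 9 to 13 rises and 7 to 14 falls in the lists. The Mrpl minus Mrps median ran between -0.1309 and -0.0038. Some uncalled members near 0 changed sign. Mrpl3 was at -0.0190 with median-ratio rescaling, -0.0107 with quantile normalization and -0.0535 with normalized fragments, and ran between -0.0541 and 0.0977 with samples left out. Mrpl11 was at 0.0003 with a pseudocount of 0.1 and 0.0329 with library weights, between -0.1130 and 0.0741 with samples left out. Mrps5 was at 0.0344 with normalized fragments and between -0.0921 and 0.0642 with samples left out, Mrps27 was between -0.0437 and 0.0364 with samples left out, and Mrpl19 was at 0.0183 with normalized fragments. The cause was not tested. Voom was not run, since whole reads could not be recovered. Depth limits Mrpl48 and Mrps36-ps1 most, at 30 to 102 and 2 to 9 fragments a sample.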
